A study of Mus musculus with 12 samples.

Results

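The 37 genes described here carry out antigen presentation by major histocompatibility complex (MHC) class I and class II molecules. They were taken by symbol from the 47593 genes of the expression table, and all 37 were found. Each had a mean of at least 1 TPM (a length-corrected share of transcripts) over the tumors, as did 16779 genes in all. TPM values divide the reads of a gene by its length and scale each tumor to the same total, so levels of different genes can be compared. TPM values keep no read number, so sequencing depth is unknown here and counting errors cannot be given.

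The values came from 12 mammary tumors of 9 female MADM-mutant mice (MADM RG;GR alleles, mixed background) that had no treatment. In these mice MMTV-Cre, which drives Cre in the mammary epithelium, recombines the MADM alleles of an animal heterozygous for Brca1 and p53. A cell division can then yield a GFP+ cell without Brca1 and p53 and an RFP+ wild-type sibling. All tumors belong to this condition, no age is given in the labels, and no normal gland was among the samples, so levels were compared between genes and between tumors. Tumors 3 and 4 came from 1 mouse and tumors 10, 11 and 12 from another, while the other 7 mice gave 1 tumor each. Tumors of a mouse were averaged as log2(TPM + 1), which gave n = 9 mice. Pieces of whole tumor were homogenized, so RNA of tumor, stromal and immune cells is mixed, and fewer cells of a type and less RNA per cell cannot be told apart.

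Class I molecules are found on almost every nucleated cell. They consist of a heavy chain (such as H2-K1 or H2-D1) and the light chain beta-2-microglobulin (B2m), and show CD8 T cells peptides that the proteasome has cut from proteins of the cell. Class II molecules are made by dendritic cells, macrophages and B lymphocytes, and by other cells after exposure to interferon gamma. Their alpha and beta chains (H2-Aa, H2-Ab1, H2-Eb1) assemble with the invariant chain Cd74 and show CD4 T cells peptides from ingested material. Ciita is the transactivator of the class II genes and Nlrc5 that of the class I genes. Both act through RFX and NF-Y proteins that sit on the X and Y boxes of the promoters.

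Promoters are shown first, since most class II genes were low in tumor 2, where Ciita was lowest, whereas H2-Oa and H2-Ob were high there, and since both kinds of class II gene include some with the X and Y boxes. A RefSeq promoter window (GRCm38.p6) was found for 29 of the 37 genes. The 250 bases before the start were searched on both strands for an X box core (GCAAC) followed after 15 to 35 bases by a Y box (ATTGG). This pair of boxes was present in 287 of 32851 windows of the reference (0.874%). It was present in 4 of the 8 class II genes with a window (H2-Aa, H2-Eb1, H2-Oa and H2-Ob) and in 0 of the 18 class I genes with one. Only these exact letters and spacings were searched, so boxes spelled otherwise were missed. Whether class I promoters lack X boxes was therefore not tested. In the stretches of 170 bases printed here, 5′ to 3′ on the strand of the gene, capitals mark the boxes.
H2-Aa, minus strand, chr17:34287824-34287993: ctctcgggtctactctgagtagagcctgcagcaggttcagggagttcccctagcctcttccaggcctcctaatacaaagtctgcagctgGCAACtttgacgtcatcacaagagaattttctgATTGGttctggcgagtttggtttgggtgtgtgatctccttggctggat
H2-Eb1, plus strand, chr17:34305697-34305866: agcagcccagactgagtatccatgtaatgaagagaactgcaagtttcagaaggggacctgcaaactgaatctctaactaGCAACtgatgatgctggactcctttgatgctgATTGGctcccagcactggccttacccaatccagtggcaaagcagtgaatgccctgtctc
H2-Oa, plus strand, chr17:34092190-34092359: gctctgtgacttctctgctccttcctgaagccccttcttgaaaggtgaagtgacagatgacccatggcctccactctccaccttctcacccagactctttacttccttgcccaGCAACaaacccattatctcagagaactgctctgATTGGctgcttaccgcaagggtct
H2-Ob, plus strand, chr17:34238735-34238904: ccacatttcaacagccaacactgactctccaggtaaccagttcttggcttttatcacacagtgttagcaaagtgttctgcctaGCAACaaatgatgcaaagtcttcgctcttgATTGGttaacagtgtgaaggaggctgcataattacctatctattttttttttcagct
Counted from the RefSeq start, the pair lay at -81 to -44 in H2-Aa, -91 to -55 in H2-Eb1, -76 to -39 in H2-Oa and -87 to -53 in H2-Ob.

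The Y box, with or without an X box, was present in 12 of the 18 class I genes and 7 of the 8 class II genes with a window, against 33.8% of all windows. A match to the interferon-stimulated response element (ISRE, searched as GAAA, any 2 bases and GAAA) was present in 3 class I genes (B2m, H2-T22 and H2-T23) and 1 class II gene (Ctss), against 2.98% of all windows. A match to the gamma-activated site (GAS, searched as TTCNNNGAA) was present in 2 class I genes (H2-M3 and Psmb8) and 1 class II gene (H2-DMb2), against 7.02% of all windows. H2-K1 and B2m, heavy and light chain of 1 molecule, are shown with the Y box in capitals and, for B2m, the ISRE match as well.
H2-K1, minus strand, chr17:34000348-34000517: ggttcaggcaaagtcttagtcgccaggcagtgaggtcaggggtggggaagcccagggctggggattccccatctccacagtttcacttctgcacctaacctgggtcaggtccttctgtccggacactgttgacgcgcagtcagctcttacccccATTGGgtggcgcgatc
B2m, plus strand, chr2:122147517-122147686: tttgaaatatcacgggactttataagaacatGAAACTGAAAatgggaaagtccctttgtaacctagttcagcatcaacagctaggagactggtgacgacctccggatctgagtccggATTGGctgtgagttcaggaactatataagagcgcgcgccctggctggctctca
These matches describe letters in a window, and binding at them was not tested.

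Of the 37 genes, 23 lie on chromosome 17 of GRCm38 between bases 33915899 and 37274484, the MHC of the mouse. The class II chains H2-Ab1 (34257689 to 34269419), H2-Aa (34282744 to 34287823) and H2-Eb1 (34305867 to 34316674) follow each other there, close to Psmb9, Tap1, Psmb8 and Tap2 (34181987 to 34216321). B2m lies on chromosome 2, Cd74 on chromosome 18, Ciita on chromosome 16 and Nlrc5 on chromosome 8. The class I genes of the Q, T and M regions resemble each other closely in sequence, and the split of reads between them, as between H2-Q6 and H2-Q7, is uncertain.

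Brca1 was between 6.93 and 24.7 TPM and Trp53 between 30.2 and 74.2 TPM over the tumors, values over all exons that do not check the deleted parts. Tumor 2 stood apart from the other 11 tumors. Epcam and Krt14 were listed at 0 in it and 6 epithelial markers summed to 1.48 TPM, against 239.5 to 8878 TPM elsewhere, so the label of a mammary tumor has no support from epithelial genes there. Its 5 B lymphocyte markers summed to 1852 TPM, against 0.648 to 115 TPM elsewhere, and its 6 macrophage markers to 266 TPM, against 923 to 2513 TPM. Tumor 9 had the next highest B lymphocyte sum and the highest Cd3e, a subunit of the T cell receptor complex (14.97 TPM, against 0 to 3.40 TPM). The sum of 7 T and NK lymphocyte markers was highest in tumor 8 (98.1 TPM, against 83.7 TPM in tumor 9 and 3.26 to 20.3 TPM in the others), with more of the NK and cytotoxic genes Ncr1 (17.8 against 0.551 TPM) and Prf1 (14.9 against 1.46 TPM) and of Cd4 (41.6 against 14.2 TPM) than tumor 9. Tumor 8 had 239.5 TPM of epithelial markers and the highest fibroblast sum (2218 TPM). The main correlations and levels over mice are therefore given with and without tumor 2.

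Together the 37 genes took from 0.552% of all TPM in tumor 2 to 4.23% in tumor 9, and from 1.33% to 2.73% in the other 10. The lowest value was in tumor 2 for 12 of the 22 class I genes and 9 of the 11 class II genes, against 31.3% of all genes tested. The highest value was in tumor 9 for 17 of the 22 class I genes and 10 of the 11 class II genes, against 14.1% of all genes tested. In tumor 9 the median class I gene was 3.00 times and the median class II gene 2.63 times its median in the other tumors, where the median over all genes was 0.842. In tumor 2 the same medians were 0.417 for class I and 0.0377 for class II, against 0.859 over all genes.

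**Figure D1:**
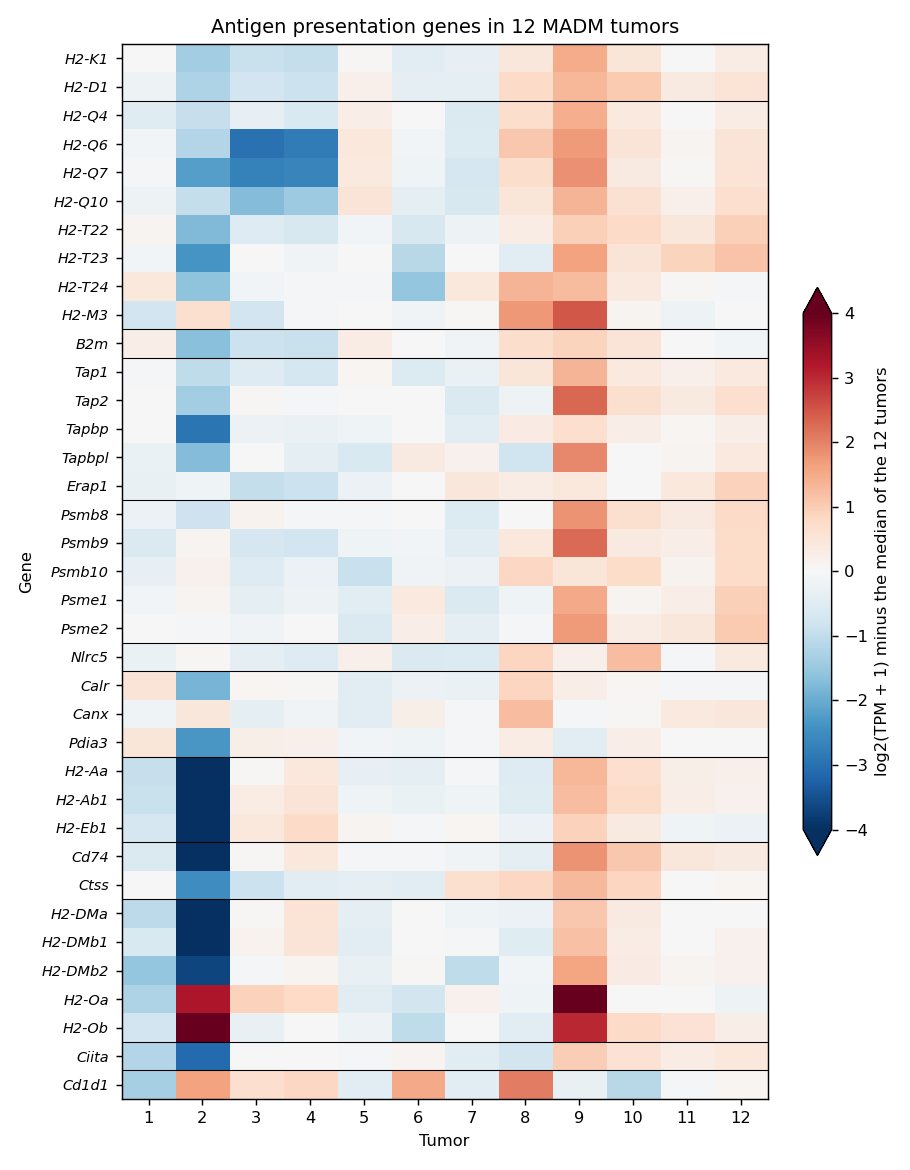
Each row is a gene and each column a tumor, colored by log2(TPM + 1) minus the median of the gene over the 12 tumors, on a scale from -4 to 4. The class II rows from H2-Aa to H2-DMb2 are blue in tumor 2, H2-Oa and H2-Ob are red in tumors 2 and 9, and H2-Q6 and H2-Q7 are blue in tumors 3 and 4.

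B2m had the highest level of the 37 genes in each of the 12 tumors. It ranged from 1378 TPM in tumor 2 through a median of 4406 TPM to 8092 TPM in tumor 9. The classical heavy chains H2-K1 and H2-D1 ranged from 769.8 to 5611 TPM (median 2017) and from 815 to 4837 TPM (median 1924), again with tumor 2 lowest and tumor 9 highest. Their ratio stayed between 0.711 and 1.20 over the 12 tumors, so both listed values varied in parallel. How reads were split between H2-K1 and H2-D1 was not checked. The means over mice were 4786 ± 2100 TPM for B2m, 2202 ± 1425 TPM for H2-K1 and 2205 ± 1284 TPM for H2-D1 (SD, n = 9). Without tumor 2 they were 5212 ± 1781, 2381 ± 1411 and 2379 ± 1255 TPM (SD, n = 8).

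The nonclassical chains were lower. H2-Q4 ranged from 162 to 847 TPM, and H2-T23, whose product Qa-1 is a ligand of NK cell receptors, from 32.3 TPM in tumor 2 to 524 TPM in tumor 9. H2-T22 ranged from 44.7 to 304 TPM and H2-T24 from 3.11 to 31.1 TPM. H2-M3, which presents formylated peptides, had a median of 20.6 TPM, with 71.2 TPM in tumor 8 and 120.4 TPM in tumor 9, while no other tumor was above 32.35 TPM.

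H2-Q6 and H2-Q7 varied most among the class I genes (SD of log2 over mice 1.34 and 1.41, against a median of 0.82 over the 22 genes, and 1.37 and 1.29 against 0.72 without tumor 2), and the low end was in 1 mouse. H2-Q6 was 57.8 and 65.9 TPM in tumors 3 and 4 of that mouse and 209 to 1542 TPM in the other 10 tumors. H2-Q7 was 55.0 and 57.3 TPM there and 78.0 to 1280 TPM elsewhere. H2-Q10 was also lower in this pair (4.599 and 5.825 TPM) than in any other tumor (8.64 to 47.1 TPM), whereas H2-Q4 was lowest in tumor 2. H2-Q2, a class I gene outside the 37, was 2.101 and 1.393 TPM in tumors 3 and 4, against 8.05 to 108 TPM.

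A further gene of the region separated the mice. H2-Ea-ps, listed as a pseudogene of the class II E alpha chain, was at 0 in the 8 tumors numbered 1 to 8 and was 29.8, 19.1, 13.6 and 12.3 TPM in tumors 9, 10, 11 and 12. The genetic background of these mice is mixed, and the part of the H2 haplotype in these values was not tested.

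The next genes make and deliver class I peptides. The chains of the peptide transporter, Tap1 and Tap2, ranged from 50.5 to 267 TPM and from 29.005 to 388 TPM, lowest in tumor 2 and highest in tumor 9. Tap1 minus Tap2 was 0.30 ± 0.53 on the log2 scale (SD, n = 9 mice, adjusted p = 0.133 in an exact sign-flip permutation test). Tap1 was the higher chain in 6 of the 9 mice. A difference between the transporter chains was thus not shown, and equal levels were not shown either. Tapasin (Tapbp), which bridges the transporter and the heavy chain, was 32.9 TPM in tumor 2 and 184 to 410.2 TPM in the other 11. Its relative Tapbpl, also a peptide editor, ran from 8.15 TPM in tumor 2 to 113 TPM in tumor 9. Erap1, the aminopeptidase that trims peptides in the endoplasmic reticulum, varied least of these 5 genes over the 9 mice (SD of log2 0.46), and Tapbp least without tumor 2 (0.36, against 0.48 for Erap1). For Erap1, tumors 3 and 4 had 22.3 and 24.1 TPM, tumor 2 had 39.7 TPM, and the maximum was 85.5 TPM.

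The immunoproteasome replaces 3 catalytic subunits of the standard proteasome by inducible ones, so each inducible subunit was set against its counterpart. Psmb8 exceeded Psmb5 in 12 of 12 tumors, with a TPM ratio of 1.26 in tumor 2, a median of 1.95 and 6.27 in tumor 9. Psmb9 was below Psmb6 in 12 of 12 tumors, at a ratio of 0.145 to 0.731, and Psmb10 below Psmb7 in 12 of 12, at 0.153 to 0.569. The inducible subunits thus did not share a common standing against their counterparts. The log2 differences over mice were 1.11 ± 0.66 for Psmb8 minus Psmb5, -2.04 ± 0.73 for Psmb9 minus Psmb6 and -1.59 ± 0.65 for Psmb10 minus Psmb7 (SD, n = 9). Each passed the exact sign-flip permutation test (adjusted p = 0.00446 over 8 gene pairs, from p = 0.00391, the smallest that 9 mice allow).

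In levels, Psmb8 was 158 to 983 TPM, Psmb9 44.0 to 373 TPM and Psmb10 44.5 to 148 TPM, while Psmb5 kept to 115 to 188 TPM. Psme1 and Psme2, subunits of the interferon-inducible proteasome activator, ranged from 135 to 581 TPM and from 132 to 650.1 TPM and had a ratio of 0.865 to 1.16. Unlike most class I genes, Psmb9, Psmb10 and Psme1 were not low in tumor 2, where they were 1.18, 1.24 and 1.17 times their median in the other tumors. This was not particular to proteasome genes, since H2-M3 (1.58 times) and Nlrc5 (1.07 times) were also above their medians there. The median SD of log2 over mice was 0.67 for the 5 genes Psmb8, Psmb9, Psmb10, Psme1 and Psme2.

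**Figure D2:**
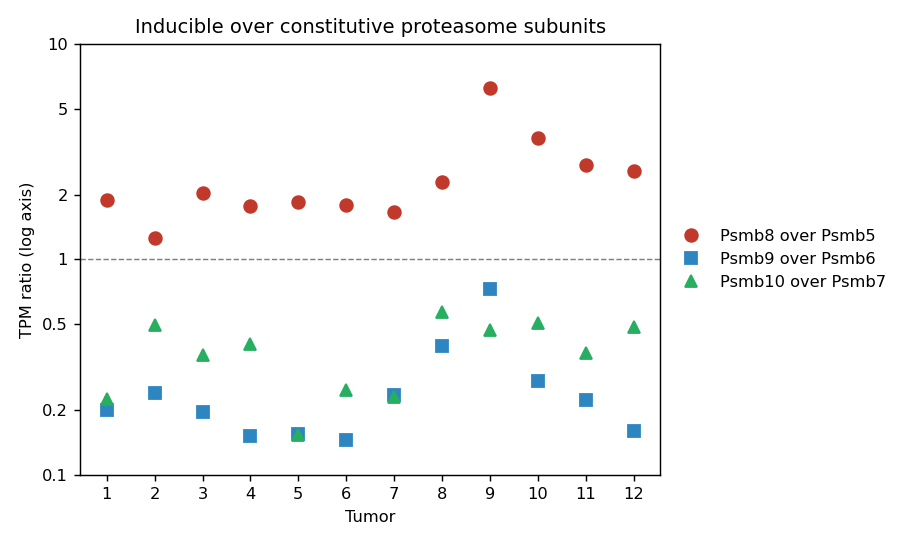
TPM ratio of each inducible proteasome subunit to its constitutive counterpart (log axis) in the 12 tumors, with a dashed line at a ratio of 1. The Psmb8 ratios lie above the line in 12 of 12 tumors and the Psmb9 and Psmb10 ratios below it, and tumor 9 has the highest Psmb8 ratio (6.27) and Psmb9 ratio (0.731).

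The chaperones of the endoplasmic reticulum, which fold class I chains along with many other glycoproteins, did not move as 1 group. Calreticulin (Calr) was 229 TPM in tumor 2 and 623 to 1484 TPM elsewhere. Pdia3, the oxidoreductase of the loading complex, was 119 TPM in tumor 2 and 443 to 844 TPM elsewhere. Calnexin (Canx) was 279 TPM in tumor 2, within the 153 to 482 TPM of the other tumors. None of the 3 had its highest value in tumor 9, unlike 27 of the 37 genes.

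The class II chains and the invariant chain were abundant in 11 of the 12 tumors. Cd74 was 35.1 TPM in tumor 2 and 1103 to 5743 TPM in the other 11. H2-Aa was 34.1 TPM in tumor 2 and 539 to 2561 TPM elsewhere, H2-Ab1 28.0 TPM and 405 to 1777 TPM, and H2-Eb1 18.0 TPM and 363 to 1097 TPM. For each of these 4 genes tumor 2 was lowest, tumor 1 next and tumor 9 highest. The chains of the A molecule kept a nearly fixed proportion, with H2-Ab1 at 0.686 to 0.872 times H2-Aa, including 0.821 in tumor 2. H2-Ab1 minus H2-Aa was -0.38 ± 0.11 on the log2 scale (SD, n = 9 mice) and negative in 12 of 12 tumors (adjusted p = 0.00446 in the exact sign-flip permutation test).

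Cathepsin S (Ctss), the protease that cleaves the invariant chain, was 114 TPM in tumor 2 and 353 to 1582 TPM in the other 11. The chains of DM, which exchanges the invariant chain remnant for peptide, followed the class II chains at a lower level. H2-DMa was 2.65 TPM in tumor 2 and 29.6 to 134 TPM elsewhere, H2-DMb1 2.60 TPM and 44.4 to 156 TPM, and H2-DMb2 1.96 TPM and 11.9 to 110.4 TPM. H2-DMa stayed between 0.04998 and 0.0789 times H2-Aa in the 12 tumors. Ciita was 0.430 TPM in tumor 2, 4.44 TPM in tumor 1, at a median of 11.3 TPM and at 23.6 TPM in tumor 9, so its extremes were those of the class II chains.

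H2-Oa and H2-Ob, whose products form the DO molecule that binds DM and is best known from B lymphocytes, departed from this order in tumor 2. The pair of boxes was found in their promoters and in those of H2-Aa and H2-Eb1, but not for H2-DMa, H2-DMb1 and H2-DMb2. The part of the boxes in these levels was not tested. In the 10 tumors other than 2 and 9 both H2-Oa and H2-Ob lay between 0.467 and 5.46 TPM. H2-Oa was 31.2 TPM in tumor 2 and 168 TPM in tumor 9. H2-Ob was 104.0 TPM in tumor 2 and 27.3 TPM in tumor 9, so the DO chains had opposite order in these tumors. H2-Ob was 39.3 times H2-DMa in tumor 2 and 0.0117 to 0.203 times in the other 11.

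Both tumors also had the highest B lymphocyte sums. Cd79a, a subunit of the B cell receptor complex, was 609 TPM in tumor 2 and 41.6 TPM in tumor 9, against 0 to 2.88 TPM in the other 10. Ms4a1, another B lymphocyte marker, was 2.18 and 11.7 TPM, against 0 to 1.20 TPM. The sum of 7 dendritic cell markers was 16.1 TPM in tumor 2 and 37.4 to 79.1 TPM elsewhere, but its members went different ways: Itgax was 0.992 TPM in tumor 2 and 32.8 to 61.1 TPM elsewhere, while Ccr7, which B lymphocytes also express, was 12.6 TPM in tumor 2 and 0.330 to 9.19 TPM elsewhere. The sum was highest in tumor 9, as were Flt3 (5.48 TPM), Zbtb46 (21.6 TPM), Xcr1 (3.25 TPM) and Clec9a (2.36 TPM), which were at most 3.96, 9.60, 0.655 and 1.11 TPM in the other 11. The remaining markers were not highest there. In tumor 9 Itgax, the most abundant of them, was 37.2 TPM (0.853 times its median in the other tumors), Ccr7 was 9.19 TPM and Cd209a was at 0. The part of these cell types in the class II values was not tested.

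**Figure D3:**
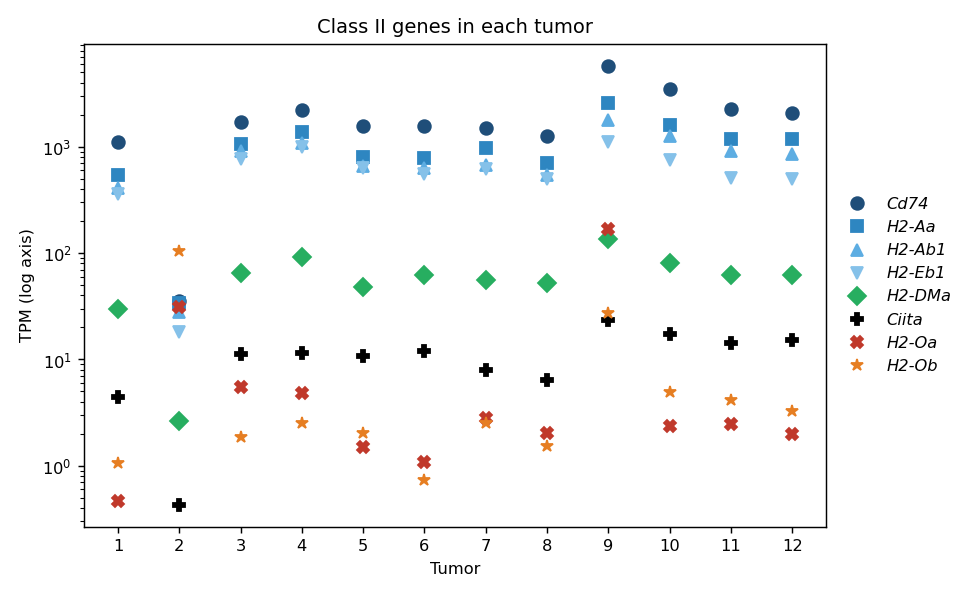
TPM (log axis) of 8 class II genes in each tumor. Cd74, H2-Aa, H2-Ab1, H2-Eb1, H2-DMa and Ciita are lowest in tumor 2, where H2-Ob (104.0 TPM) lies above them, and H2-Oa is highest in tumor 9 (168 TPM).

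Class I genes were above class II genes in most tumors. B2m was above Cd74 in 12 of 12 tumors, by 1.82 ± 1.49 on the log2 scale (SD, n = 9 mice). H2-K1 was above H2-Ab1 in 11 of 12, by 1.84 ± 1.27, the exception being tumor 4 with a TPM ratio of 0.964. Nlrc5 was above Ciita in 12 of 12, by 2.07 ± 1.27. Each of these differences had adjusted p = 0.00446 in the exact sign-flip permutation test over mice. The margins were widest in tumor 2, where B2m was 39.3 times Cd74, against 1.07 to 5.66 times elsewhere, and Nlrc5 89.3 times Ciita, against 1.83 to 10.7 times.

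The summed TPM of the 22 class I genes was 0.983 times that of the 11 class II genes in tumor 4, 1.30 times in tumor 3 and 1.88 to 4.01 times in the other tumors except tumor 2, where it was 12.0 times. The median class I gene was at 7.14 ± 0.84 and the median class II gene at 6.01 ± 0.71 on the log2 scale, a difference of 1.13 ± 0.67 (SD, n = 9 mice) that was 1.13 ± 0.72 without tumor 2 (n = 8). By tumor the difference of medians ran from -0.43 in tumor 4 and 0.02 in tumor 3 to 1.96 in tumor 12. The 2 tumors in which the medians met or crossed thus came from 1 mouse.

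Class II genes were more spread than class I genes only with tumor 2 included. The median SD of log2 over mice was 0.82 for class I, 1.69 for class II and 0.57 for all genes tested. Without tumor 2 it was 0.72, 0.68 and 0.48. In tumor 8, which had few epithelial transcripts, the classes parted: the median class I gene was 1.45 times and the median class II gene 0.735 times its median in the other tumors, against 0.962 over all genes.

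**Figure D4:**
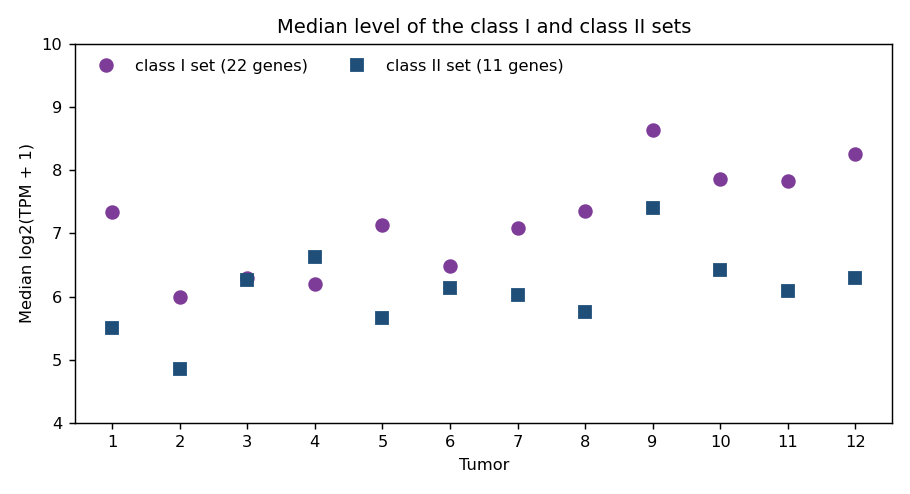
Median log2(TPM + 1) of the 22 class I genes and of the 11 class II genes in each of the 12 tumors. The class I median is above the class II median in 11 of 12 tumors, by 0.02 in tumor 3, and below it by 0.43 in tumor 4.

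Whether the genes of each class followed their transactivator over the mice was tested by correlation with every gene. No gene passed the adjusted threshold with Ciita (0 of 36 other presentation genes and 0 of all genes tested, exact permutation test of the pairings of 9 mice, Benjamini-Hochberg adjusted), and the smallest adjusted p among the 36 was 0.0809, for Cd74. In this exact permutation test the smallest possible p is 2.76e-06, so 1 gene alone could barely pass the adjustment. A count of 0 does not show that no gene followed Ciita, and the same limit holds for the correlations with other genes below. At an unadjusted p under 0.05 with positive r, 8 of 10 other class II genes and 8 of 22 class I genes were counted, against 8.19% of all genes. Without tumor 2 the counts were 9 of 10 and 5 of 22, against 5.89%, and without tumors 2 and 9 they were 5 of 10 and 0 of 22, against 3.26%. A negative r at an unadjusted p under 0.05 was found without tumor 2 for 1 of the 36, the chaperone gene Pdia3, which went from r = 0.65 over the 9 mice to r = -0.81 (exact permutation p = 0.0153, adjusted p = 0.358). With Spearman's rho over the 9 mice the counts with positive rho were 7 of 10 class II and 3 of 22 class I genes, against 3.81%. The median r with Ciita was 0.96 for class II, 0.61 for class I and 0.08 for all genes, and 0.88, 0.45 and -0.06 without tumor 2.

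Cd74 followed Ciita with r = 0.96 (exact permutation p = 1.1e-05, rho = 0.95 with p = 0.000353), r = 0.93 without the 2 mice farthest from the median of Ciita, which were those of tumors 1 and 2, and r = 0.91 without tumor 2. H2-Ab1 had r = 0.97 (exact permutation p = 8.82e-05, adjusted p = 0.231), rho = 0.85, r = 0.89 without those 2 mice and 0.92 without tumor 2. H2-DMb2, a DM beta chain, had r = 0.97 (exact permutation p = 0.000342, adjusted p = 0.271), rho = 0.93, r = 0.83 without them and 0.90 without tumor 2. H2-Aa, H2-Eb1, H2-DMa and H2-DMb1 had r of 0.93 to 0.97 and, without those mice, 0.70 to 0.86 (0.82 to 0.90 without tumor 2).

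The other class II genes differed from these in how far they rested on tumor 2. Ctss, which macrophages express at high levels, had r = 0.75 with Ciita (exact permutation p = 0.0367, adjusted p = 0.331) but rho = 0.33 and r = 0.21 without tumor 2, so its relation rested on that tumor. For H2-Oa r was 0.01 with all 9 mice (exact permutation p = 0.974, adjusted p = 0.988, rho = 0.22), 0.73 without tumor 2 (p = 0.0299) and -0.71 without tumor 9. For H2-Ob it was -0.44 (exact permutation p = 0.223, adjusted p = 0.467, rho = 0.10), 0.75 without tumor 2 (p = 0.028) and -0.81 without tumor 9. Among class I genes, Psmb8 had r = 0.77 with Ciita (exact permutation p = 0.0372, adjusted p = 0.332), rho = 0.90 and r = 0.81 without tumor 2.

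Nlrc5 varied less than Ciita (SD of log2 over mice 0.50 against 1.18, and 0.54 against 0.68 without tumor 2), at 24.3 to 89.6 TPM with a median of 37.1 TPM, 38.4 TPM in tumor 2 and 43.1 TPM in tumor 9. No gene passed the adjusted threshold with Nlrc5 (0 of 36, 0 of all genes tested, exact permutation test), and at an unadjusted p under 0.05 with positive r the count was also 0 of 36, against 0.9% of all genes. Without tumor 2 it was 2 of 36 (H2-D1 and H2-Q10, against 1.84%), and without tumors 2 and 9 it was 9 of 36, each a class I gene, against 2.8%. With Spearman's rho it was 5 of 36 (H2-K1, H2-D1, H2-Q7, H2-T22 and Tap1), against 1.26%. H2-K1 had r = 0.49 with Nlrc5 (exact permutation p = 0.177, adjusted p = 1), rho = 0.73 (p = 0.0311), r = 0.45 without the 2 mice farthest from the median of Nlrc5 (those of tumors 6 and 8) and r = 0.64 without tumor 2 (p = 0.0806). H2-D1 had r = 0.64 (exact permutation p = 0.0668, adjusted p = 1), rho = 0.73, r = 0.58 without those 2 mice and r = 0.80 without tumor 2 (p = 0.0202). Nlrc5 and Ciita themselves had r = 0.03 (exact permutation p = 0.942, adjusted p = 0.974, rho = 0.08).

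**Figure D5:**
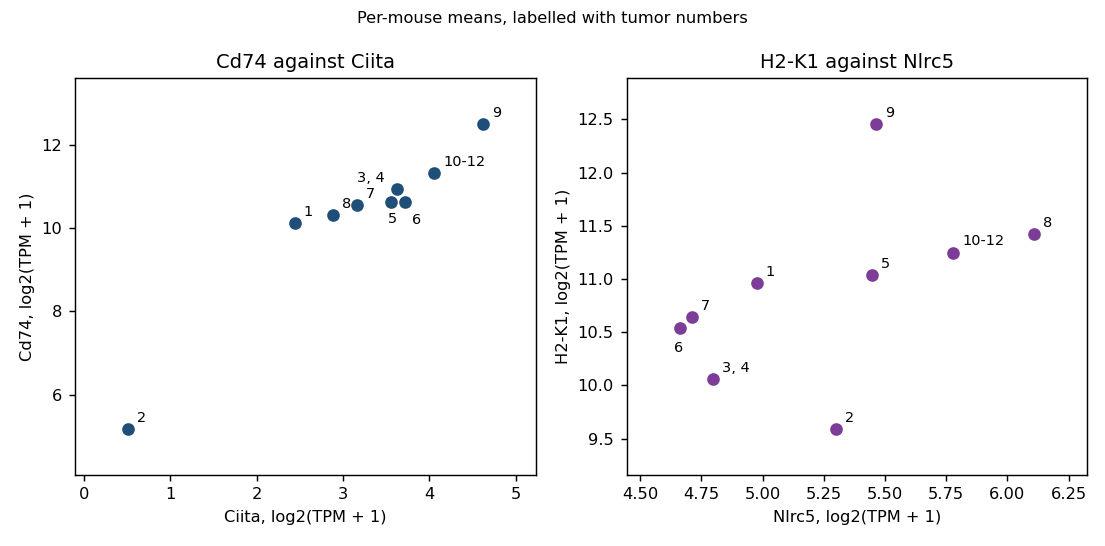
Log2(TPM + 1) of Cd74 against Ciita and of H2-K1 against Nlrc5, 1 point per mouse, labelled with its tumors. The mouse of tumor 2 is lowest for Ciita and Cd74, and the other mice still order from tumor 1 to tumor 9 (r = 0.91 without tumor 2), while H2-K1 against Nlrc5 has r = 0.49, and 0.64 without tumor 2.

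The 5 genes outside the 37 whose log2 levels were most like Ciita over the 9 mice were Perm1 (r = 0.97), Gpr160, Agtrap, Mrpl38 and Tspan33, with rho of 0.817 to 0.967 and adjusted p of 0.0809 to 0.271 (exact permutation test). All 5 had their lowest level in tumor 2. The 5 most like Nlrc5 were Gm6501, Axin2, Tacc1, Ibtk and Casc4 (r of 0.83 to 0.85, rho of 0.783 to 0.9), each with adjusted p = 1 in the exact permutation test.

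Presentation genes were next set against Irf1, a transcription factor induced by interferon gamma. The adjusted count was 0 of 37 (0 of all genes, exact permutation test), and the unadjusted count with positive r was 7 of 22 class I and 9 of 11 class II genes, against 5.83% of all genes. Without tumor 2, where Irf1 was lowest (31.0 TPM, against 94.4 to 230.5 TPM), only Psmb10, Psme1 and Psme2 were counted, 3 of 37 against 1.54%. The count was 2 of 37 without tumors 2 and 9, against 1.38%, and 3 of 37 with Spearman's rho, against 1.93%. Ciita had r = 0.89 with Irf1 (exact permutation p = 0.00777, adjusted p = 0.369), rho = 0.68, r = 0.51 without the 2 mice farthest from the median (tumor 2, and tumors 10 to 12) and r = 0.58 without tumor 2 (p = 0.138), so the relation rested on those mice.

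Csf1r, the receptor of the macrophage growth factor, stood for macrophages. The adjusted count was 0 of 37, against 0.0119% of all genes, and the unadjusted count 7 of 22 class I and 8 of 11 class II genes, against 8.87% (exact permutation test). The count was 5 of 37 without tumor 2 (against 5.57%), 2 of 37 without tumors 2 and 9 (against 6.92%) and 4 of 37 with Spearman's rho (against 4.57%). Ctss had r = 0.93 with Csf1r (exact permutation p = 0.00132, adjusted p = 0.118), rho = 0.87, r = 0.87 without the 2 farthest mice (tumors 2 and 8) and r = 0.79 without tumor 2 (p = 0.016). Cd74 had r = 0.89 (exact permutation p = 0.0296, adjusted p = 0.261) but rho = 0.35, r = 0.76 without tumors 2 and 8, r = 0.21 without tumor 2 alone (p = 0.607) and r = -0.27 without tumors 2 and 9. H2-T24, a class I gene of the T region, had r = 0.80 with Csf1r (exact permutation p = 0.000287, adjusted p = 0.0867) and 0.81 without tumor 2. The Cd74 level was 4.33 times that of Csf1r in tumor 2, 5.69 times in tumor 8 and 38.2 times in tumor 9. H2-Ab1 over Csf1r gave another order, with 2.43 in tumor 8 (lowest), 3.45 in tumor 2, 11.8 in tumor 9 and 13.2 in tumor 11 (highest).

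Cd3e stood for T lymphocytes, the cells to which the molecules present. The adjusted count was 0 of 37 (0 of all genes, exact permutation test), and the unadjusted count 13 of 22 class I and 2 of 11 class II genes, against 6.6% of all genes. Without tumor 2 it was 10 of 22 and 9 of 11, against 7.06%, and without tumor 9 it was 1 of 37, against 4.95%. Tap1 had r = 0.81 with Cd3e (exact permutation p = 0.00984, adjusted p = 0.31), rho = 0.68, r = 0.77 without tumor 2 and r = 0.34 without the mice of tumors 2 and 9. Psmb8 had r = 0.84 (exact permutation p = 0.00985, adjusted p = 0.31), rho = 0.66, r = 0.81 without tumor 2 and r = 0.30 without both. Without both tumors 2 of 37 genes were counted, against 2.82% of all genes, and with Spearman's rho over the 9 mice 6 of 37, against 4.65%. The count of 15 thus fell without tumor 9 and not without tumor 2.

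A further 38 genes of the pathway were listed, and 36 of them were tested. Ifng, the gene of interferon gamma, was at 0 to 2.28 TPM and H2-T3 at 0 to 0.653 TPM, both under the minimum mean. With Ciita the adjusted count was 0 of 36 and the unadjusted count with positive r 8 of 36, against 8.19% of all genes (Ifngr1, Ifngr2, Irf1, Socs1, Psmb5, Ifi30, March1 and Icam1). Without tumor 2 it was 3 of 36 (Psmb5, Psmb6 and H2-Ea-ps), against 5.89% of all genes, in the exact permutation test. H2-Ea-ps was at 0 in all but 2 of those 8 mice and passed the minimum mean only through these 2, so nothing is read from its count. The subunits of the RFX complex, through which Ciita acts, had other extremes than Ciita. Rfx5 was 39.3 TPM in tumor 2 and 37.6 TPM in tumor 9, the tumors with the lowest and the highest Ciita, and 13.4 to 22.2 TPM in the other 10. Rfxap was highest in tumor 2 (23.8 TPM) and lowest in tumor 9 (8.38 TPM), and Rfxank was 14.9 to 26.4 TPM.

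Of the signaling genes, Socs1, a feedback inhibitor of cytokine signaling, ranged from 0.844 TPM in tumor 2 to 57.5 TPM in tumor 9, and thus had the extremes of the class II chains. Icam1, an adhesion molecule of antigen-presenting cells, was 1.72 TPM in tumor 2 and 448 TPM in tumor 9, with 21.4 to 121 TPM in the others. The costimulatory ligand Cd86 was 2.32 TPM in tumor 2 and highest in tumor 8 (32.2 TPM).

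Likeness of tumors of the same mouse was tested with the 4 same-mouse pairs against the 62 other pairs. The adjusted count was 0 of 37 (exact permutation of the animal labels), and the unadjusted count 25 of 37 (16 of 22 class I and 7 of 11 class II), against 26.3% of all genes. It was 9 of 37 without tumor 3 (against 12% of all genes), 8 of 37 without tumor 4 (against 12.3%), and 16 of 37 without tumor 11 (against 17%) or tumor 12 (against 19.2%). Without tumor 3 or 4 a single mouse with several tumors is left, and the smallest p that the test allows rises from 0.000126 to 0.00606. H2-Q6 differed by 0.26 on the log2 scale within a mouse and by 1.69 between mice (exact permutation p = 0.00316, adjusted p = 0.135). Ciita differed by 0.14 and 1.17 (p = 0.00202, adjusted p = 0.135), whereas Nlrc5 differed by 0.68 and 0.66 (p = 0.547, adjusted p = 0.593), with a range of 2.50-fold over tumors 10 to 12 of 1 mouse. The transactivators thus differed in how alike tumors of a mouse were, a difference that was not itself tested.

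Cd1d1 presents lipids to NKT cells and is neither class I nor class II. It was 5.29 to 64.2 TPM with a median of 14.8 TPM, highest in tumor 8, and high in tumor 2 (47.4 TPM) and tumor 6 (44.3 TPM), while tumor 9 had 11.7 TPM. Its order over the tumors thus differed from that of the class I and class II chains, and its r with Ciita was -0.33 (exact permutation p = 0.408, adjusted p = 0.634, rho = -0.05, r = 0.02 without tumor 2).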

How the data were processed

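RNA of 12 tumor pieces was made into stranded mRNA libraries and sequenced in pairs. The authors trimmed adapters with fastq-mcf, aligned reads with HISAT2 to the transcriptome of GRCm38, then computed TPM with StringTie 2.1.6. The deposited TPM values, 1 per gene and tumor, are normalized for length and total. How transcripts were summed per gene is not given in the sources used here. Genes with a mean of at least 1 TPM over the tumors were tested as log2(TPM + 1), averaged per mouse, so differences of low genes are understated. Correlations used all 362880 pairings of 9 mice, gene pairs all 512 sign flips, and likeness within a mouse all label assignments, all exact and Benjamini-Hochberg adjusted, with a threshold of 0.05 (Python 3.11.15, numpy 2.4.6, scipy 1.17.1). p-values are two-sided, except one-sided for likeness within a mouse. The tests were tried on simulated data. Correlations used 5 anchor genes (Ciita, Nlrc5, Irf1, Csf1r, Cd3e). Named genes are the 37, the listed pathway, anchor and marker genes, and the 5 most like each transactivator. The members and lists were chosen with earlier results of these data known. Gene coordinates are from GENCODE on GRCm38. Alternatives were a pseudocount of 0.1, TPM rescaled without mitochondrial genes, genes above 0 in 6 or more tumors in place of the mean minimum, rank correlation, each tumor as a unit, and leaving out each mouse or tumor.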

Additional observations from a re-analysis of the deposited data

Results flagged for a closer look

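Single mice far from the other mice were sought among 40 log2 values per mouse with Dixon's criterion, which picks out about 1 in 20 groups by chance, and 11 were picked out, all single genes (11 of 37, against 18.5% of all genes tested). In 9 of them the mouse of tumor 2 was far below the rest, as it was for 5.67% of all genes. For the class II genes its log2(TPM + 1) was 5.13 for H2-Aa (nearest mouse 9.08), 4.86 for H2-Ab1 (8.66), 4.25 for H2-Eb1 (8.51), 5.17 for Cd74 (10.11), 1.87 for H2-DMa (4.93) and 1.85 for H2-DMb1 (5.50). For the genes that load and fold class I chains it was 5.08 for Tapbp (7.53), 7.84 for Calr (9.28) and 6.90 for Pdia3 (8.79). In the other 2 the mouse of tumor 9 was far above the rest, as it was for 2.78% of all genes, at 8.55 for Psmb9 (nearest mouse 6.72) and 9.19 for Psme1 (8.11). Beside these values stand the marker sums: tumor 2 had 1.48 TPM of epithelial and 1852 TPM of B lymphocyte markers, and tumor 9 had 115 TPM of B lymphocyte markers, 79.1 TPM of dendritic cell markers and 14.97 TPM of Cd3e. Their part in the values was not tested.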

How the results depend on the processing

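No paired analysis was possible because the samples share 1 condition. The 8 gene-pair differences kept their direction and side of the threshold under every alternative run, and the class difference, which has no test, kept its direction. Leaving out 1 mouse at a time gave 1.40 to 2.01 for B2m minus Cd74, -0.39 to -0.36 for H2-Ab1 minus H2-Aa, 1.48 to 2.06 for H2-K1 minus H2-Ab1, 1.74 to 2.23 for Nlrc5 minus Ciita, -1.69 to -1.46 for Psmb10 minus Psmb7, 0.92 to 1.21 for Psmb8 minus Psmb5, -2.24 to -1.95 for Psmb9 minus Psmb6, 0.20 to 0.40 for Tap1 minus Tap2, and 1.05 to 1.30 for the class difference.

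Unadjusted counts of positive correlations were less stable. With Spearman's rho the count of members was 10 for Ciita, 5 for Nlrc5, 3 for Irf1, 4 for Csf1r and 6 for Cd3e, in place of 16, 0, 17, 16 and 15. The shares of all genes were 3.81%, 1.26%, 1.93%, 4.57% and 4.65%, in place of 8.19%, 0.9%, 5.83%, 8.87% and 6.6%. Without tumors 2 and 9, an alternative chosen after seeing the data, the count of members was 5, 9, 2, 2 and 2. The shares of all genes were then 3.26%, 2.8%, 1.38%, 6.92% and 2.82%, and the within-mouse count was 14 (against 18.6% of all genes) in place of 25. With each tumor as a unit the count of members was 4 for Nlrc5 (against 1.29% of all genes), and the adjusted counts were 6 for Ciita (H2-Aa, H2-Ab1, Cd74, H2-DMa, H2-DMb1 and H2-DMb2) and 2 for Csf1r, in place of 0 (against 0.131% and 1.02%). Leaving out 1 mouse at a time gave 11 to 22 for Ciita (5.89% to 9.4% of all genes), 0 to 2 for Nlrc5 (0.805% to 1.84%; 2 without tumor 2, 5 or 9), 3 to 18 for Irf1 (1.54% to 6.63%; 3 without tumor 2), 5 to 19 for Csf1r (5.57% to 12.4%; 5 without tumor 2, 10 without tumor 9), and 1 to 19 for Cd3e (4.95% to 7.31%; 1 without tumor 9, 10 without tumor 8), and leaving out 1 tumor gave 8 to 25 within a mouse (8 without tumor 4, 9 without tumor 3, 16 without tumor 11 or 12, against 12.3%, 12%, 17% and 19.2% of all genes), with all adjusted counts at 0. Fewer mice or tumors raise the smallest p that the exact tests allow. After adjustment over all genes, counts of 0 were then nearly fixed in advance and do not show stability. The r of H2-Oa with Ciita changed sign at a pseudocount of 0.1 (-0.084) and with each tumor as a unit (-0.044), the r of H2-Ob with Ciita with Spearman's rho (0.10) and without tumors 2 and 9 (0.48), the r of Ctss with Ciita without tumors 2 and 9 (-0.38), and the r of Cd74 with Csf1r without them (-0.27). Leaving out 1 mouse moved r from -0.71 (without tumor 9) to 0.73 (without tumor 2) for H2-Oa and from -0.81 to 0.75 for H2-Ob (without the same tumors). The cause of these changes was not tested. The depth of the libraries is unknown, so no limit of detection can be given for values near 0.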

Other observations

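The class II compartment also holds proteases and a thiol reductase that were not among the 37 genes. Cathepsin L (Ctsl) was 44.5 TPM in tumor 2 and 64.3 TPM in tumor 9, and 227 to 945.0 TPM in the other 10, so tumors at opposite ends for Cd74 were both at its low end. Cathepsin D (Ctsd) was 292 TPM in tumor 2 and 1001 to 2145 TPM elsewhere. The thiol reductase Ifi30 was 88.5 TPM in tumor 2 and highest in tumor 8 (384 TPM). Cd40, a costimulatory receptor, was 3.98 to 11.5 TPM in 10 tumors, 31.2 TPM in tumor 8 and 52.0 TPM in tumor 9.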
